A study of Mus musculus with 4 samples.

Results

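The genes described here encode subunits of the Polycomb repressive complexes, which keep developmental genes silent in animal cells. Polycomb repressive complex 2 (PRC2) methylates lysine 27 of histone H3, and Polycomb repressive complex 1 (PRC1) places ubiquitin on histone H2A and compacts chromatin. In early B cells Ezh2 is known for its role in rearrangement of the immunoglobulin heavy chain, and Bmi1 for keeping the Ink4a/Arf locus, Cdkn2a, silent in haematopoietic stem cells and lymphoid progenitors. The members were the 10 genes Ezh1, Ezh2, Eed, Suz12, Jarid2, Bmi1, Ring1, Rnf2, Cbx2 and Cbx7, taken with every probe set for which the platform's annotation lists that symbol alone. This gave 11 probe sets, 2 of them for Eed, among 21640 single-symbol probe sets and 34760 probe sets in all.

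The arrays held RNA of wild-type C57BL/6 mice, from bone marrow pro-B cells isolated as B220+ c-Kit+ cells, hybridized as 4 replicates with 1 array each. The paper's methods mark pro-B cells of the marrow more narrowly, as B220low c-Kit+. No treatment, age or transgene is labelled for them, and they form 1 group, so no contrast between conditions could be made. The values are log2 intensities after RMA, an algorithm that corrects the background and sets arrays to a common scale. The labels do not say whether replicates came from separate mice, so an SD given here measures the spread between these samples, which may in part be technical. In bulk RNA, fewer cells of a type and less RNA per cell cannot be told apart.

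Of the gene markers of the sort, Kit lay between 10.46 and 10.83 and Ptprc, which encodes the protein that carries B220, between 11.29 and 11.86 on the log2 scale. The Ptprc value is that of the whole gene and does not single out B220. Of 15 early B-cell markers with a probe set, 14 were above background. Erythroid (10 of 10) and granulocyte and monocyte markers (14 of 14) were above it too. Mean log2 levels over the arrays ran from 11.79 to 12.30 for the 14 myeloid genes. For the 15 early B-cell genes they ran from 9.98 to 10.83. Since the probe sets differ, these levels give no order of RNA amount, but strong myeloid signal was present on every array. Of markers of T and NK cells, 8 of 9 passed, as did 5 of 7 of stem and progenitor cells and 5 of 7 of stromal and endothelial cells. The share over all single-symbol probe sets was 63.5%. The 8 T and NK markers that passed exceeded background by means of 0.29 to 6.29 on the log2 scale. Those of T cells among them did so by no more than 0.91. A shift is a log2 value on 1 array less the average of the remaining 3, and its median over the early B-cell markers was 0.59 for replicate 1 and -0.53 for replicate 4. For the erythroid markers, whose mean log2 level was 8.70 to 10.18 over the arrays, it was -1.31 for replicate 1. How far cells of these types, where present, contribute to the values of the Polycomb genes was not tested. Replicate 3 stood apart in sex-linked RNA, since Xist, the RNA that coats the inactive X chromosome, was at 5.48 there and at 13.04 to 13.17 on the other arrays. The Y-linked Uty was at 9.31 on replicate 3 and at 4.29 to 5.25 on the others.

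Every one of the 10 member genes was above background on all 4 arrays, and 10 of the 11 member probe sets were. A probe set was called above background where its value passed, on each array, the 95th percentile of 1246 probe sets for chemosensory receptors (olfactory, vomeronasal or taste), assumed to be silent in lymphocytes. These lines lay between 6.53 and 6.62, and 45 of the 1246 receptor probe sets passed on all arrays. The same rule was met by 60.0% of all probe sets and by 63.5% of single-symbol probe sets. The 10 members above the line exceeded it by means of 1.84 to 5.30 on the log2 scale, and the lowest margin on a single array was 1.66, for Cbx2. A one-sided limma test of the same margins, with the line taken as fixed, called 60.2% of all probe sets. In it the 10 had adjusted p-values between 2.62e-09 and 5.86e-07 (Benjamini-Hochberg, n = 4 arrays), and the remaining member probe set was not called. Because the 10 were picked by these margins, the p-values add no separate support.

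**Figure D1:**
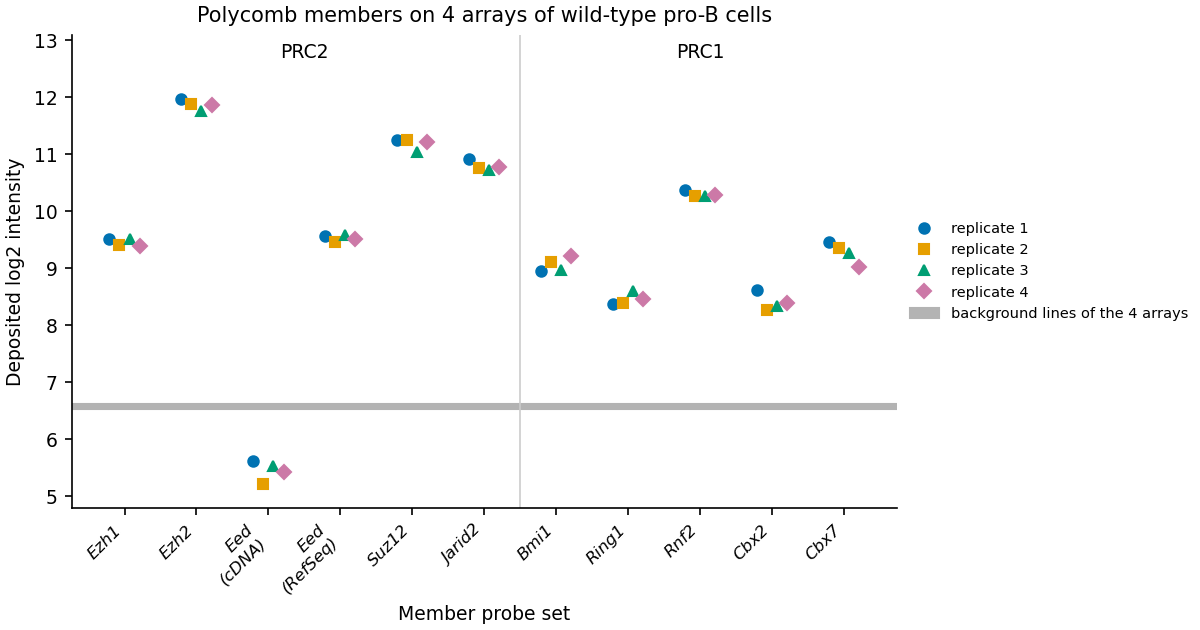
Deposited log2 intensity (vertical axis) of the 11 member probe sets (horizontal axis) on the 4 arrays of wild-type pro-B cells, 1 point per array; the grey band spans the background lines of the arrays, 6.53 to 6.62. The points of 10 probe sets lie above the band and those of the Eed probe set listed against a cDNA lie below it; heights of different probe sets cannot be compared.

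The promoters of 3 PRC2 genes, chosen by their values, are shown because Ezh2 and Suz12 were among the members lowest on the array of replicate 3, while Ezh1, the paralogue of Ezh2, was not. Each is the run of 250 bases before the gene's start in RefSeq's table for GRCm38.p6, written on the gene's strand, with capitals for CCAAT, the core of the site bound by NF-Y, and for the words TTTCCCGC, TTTCGCGC, TTTGCCGC and TTTGGCGC, forms of the site of E2F factors, which drive genes of S phase. Both strands were searched, and these words do not overlap with CCAAT in the windows shown.
Ezh2, chr6:47595031-47595280, minus strand: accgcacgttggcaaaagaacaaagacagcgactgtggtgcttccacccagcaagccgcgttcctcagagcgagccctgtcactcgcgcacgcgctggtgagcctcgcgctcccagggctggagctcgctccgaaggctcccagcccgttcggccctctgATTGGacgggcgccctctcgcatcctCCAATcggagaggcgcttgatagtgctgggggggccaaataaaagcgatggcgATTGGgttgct
Suz12, chr11:79992856-79993105, plus strand: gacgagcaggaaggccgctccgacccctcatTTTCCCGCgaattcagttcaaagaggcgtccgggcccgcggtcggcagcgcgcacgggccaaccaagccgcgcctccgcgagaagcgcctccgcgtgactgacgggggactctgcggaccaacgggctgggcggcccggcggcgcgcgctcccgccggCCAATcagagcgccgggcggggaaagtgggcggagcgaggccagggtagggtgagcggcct
Ezh1, chr11:101226464-101226713, minus strand: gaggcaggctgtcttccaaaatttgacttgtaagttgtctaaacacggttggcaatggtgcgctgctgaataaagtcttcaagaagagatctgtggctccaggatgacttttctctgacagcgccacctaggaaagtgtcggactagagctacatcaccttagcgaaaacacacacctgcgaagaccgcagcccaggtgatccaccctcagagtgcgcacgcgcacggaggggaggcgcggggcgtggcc

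The Ezh2 window held CCAAT at 3 places, starting 90, 64 and 11 bases before the start, of which only the middle one reads CCAAT on the gene's strand. The Suz12 window held an E2F word 219 bases before the start and a CCAAT 61 bases before it. The Ezh1 window held neither. Its share of G and C was 55.2%, beside 63.6% for Ezh2 and 73.6% for Suz12. Among all 32851 windows of that table, 1.86% held an E2F word and 33.8% a CCAAT in the same 250 bases. Of the 10 windows of members, 1 held an E2F word (Suz12) and 4 held a CCAAT (Cbx7, Ezh2, Jarid2 and Suz12). With the 50 bases after the start included, Ezh2 also had an E2F word (TTTGGCGC, bases 4 to 11 of the transcript), a class then met by 2.26% of windows. A CCAAT was then held by 37.4% of all windows and by 6 of the 10 of members (Cbx7, Eed, Ezh2, Jarid2 and Suz12). Of the members lowest on replicate 3, Ezh2, Suz12 and Jarid2 thus held a CCAAT and Rnf2 held neither word. Of those highest there, Eed held a CCAAT and Ring1 held neither. A link between these words and the values on the arrays was not tested. The 10 windows of members stand for 9 member genes, with none for Cbx2. These matches describe letters and are no measure of binding.

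Ezh2, the main histone methyltransferase of dividing cells, had log2 values of 11.97, 11.89, 11.77 and 11.87 on the arrays of replicates 1 to 4. It was lowest on replicate 3, and all 4 values lay within 0.20 of each other, a 1.15-fold range (mean 11.87 ± 0.08, SD, n = 4). Ezh1, the methyltransferase that prevails in resting cells, had 9.52, 9.41, 9.51 and 9.40. Its values split into the pair of replicates 1 and 3 and the lower pair of replicates 2 and 4, only 0.13 apart at most (mean 9.46 ± 0.07, SD, n = 4). On the array of replicate 3 the shift of Ezh2 from the mean of the other arrays was -0.14 and that of Ezh1 was 0.07.

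Suz12, the scaffold of PRC2 that the enzyme needs for its activity, had 11.25, 11.26, 11.04 and 11.23 on the log2 scale. Replicate 3 lay 0.20 below the mean of the others, which were close to each other. Eed, the subunit that binds trimethylated H3 and stimulates the enzyme, had 9.57, 9.46, 9.59 and 9.51 on the probe set listed against its RefSeq transcript. That probe set had the smallest SD of the PRC2 members, 0.06. Another Eed probe set, which the platform's annotation lists against a cDNA alone, had 5.62, 5.22, 5.54 and 5.43. It was below the line on all 4 arrays, by a mean of 1.12, so the probe sets of Eed disagree on detection and the gene was counted as above background by the RefSeq one.
Jarid2, an accessory subunit that helps to recruit PRC2 to its targets, had 10.92, 10.77, 10.73 and 10.78. It was highest on replicate 1, with a shift of 0.16, and lowest on replicate 3, and the arrays other than replicate 1 lay close together.

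Among the PRC1 members, Rnf2 and Ring1 encode the alternative E3 ligases that ubiquitinate H2A. Rnf2 had 10.37, 10.28, 10.27 and 10.29 on the log2 scale, the smallest spread of all members (SD 0.05, n = 4). Its range of 0.11 is a 1.08-fold difference. Ring1 had 8.37, 8.40, 8.61 and 8.46. It was highest on replicate 3, with a shift of 0.20. Rnf2 was lowest on that array, but only just, at 10.265 against 10.275 on replicate 2.

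Bmi1, the partner of the ligases in canonical PRC1, had 8.96, 9.11, 8.96 and 9.21. The arrays of replicates 2 and 4 were higher than those of replicates 1 and 3, with a range of 0.26 (mean 9.06 ± 0.12, SD, n = 4). Bmi1 and Ring1 were the only members above background with a negative shift for replicate 1, of -0.14 and -0.12.

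Cbx2 and Cbx7 encode chromodomain proteins that tether PRC1 to methylated H3, and they had the largest SDs of the members above background. Cbx7 had 9.47, 9.35, 9.27 and 9.03 on the log2 scale. It was highest on replicate 1 and lowest on replicate 4, a 1.36-fold range (mean 9.28 ± 0.19, SD, n = 4). Cbx2 had 8.62, 8.28, 8.35 and 8.39. Replicate 1 was 0.28 above the mean of the others and replicate 2 was lowest (mean 8.41 ± 0.15, SD, n = 4). On the same arrays the markers of pre-B and immature B cells, all 6 with a probe set above background, had median shifts of 0.56, -0.01, 0.07 and -0.61, and those of Cbx7 were 0.25, 0.09, -0.01 and -0.33. The mean log2 level of these markers was 9.17 to 10.05 over the arrays. Their part in the spread of Cbx7 was not tested.

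The genes whose profile over the 4 arrays was nearest to that of Cbx7, by root mean square distance after subtracting each probe set's mean, were Micu3 (0.0075), Man1c1 (0.0076), Zfp831 (0.013), Gm10847 (0.014) and Nab2 (0.016). Nearest to Cbx2 were Ypel1 (0.0083), Cuedc1 (0.0094), Usp3 (0.011), Nod2 (0.012) and Ptpdc1 (0.012). With 4 arrays such closeness is common, since 118 probe sets lay within 0.05 of Cbx7 and 275 within 0.05 of Cbx2.

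The median SD of the members above background was 0.093 on the log2 scale, against 0.115 over the 13744 single-symbol probe sets above background, and 7 of the 10 had an SD below that median. After quantile normalization these medians were 0.111 and 0.114, after cyclic loess 0.102 and 0.114, and 6 of the 10 lay below the median in each case. The PRC2 members had SDs of 0.060 to 0.10 and the PRC1 members 0.049 to 0.19. In the order of SDs of all these probe sets, Rnf2 stood at percentile 8.53, Eed at 13.9, Ezh1 at 16.9, Ezh2 at 28.7, Jarid2 at 29.7, Suz12 at 42.0, Ring1 at 44.4, Bmi1 at 55.4, Cbx2 at 68.0 and Cbx7 at 81.2. Housekeeping genes had a median SD of 0.065, cell cycle genes 0.10, early B-cell markers 0.40 and erythroid markers 0.69. These figures describe the lists and were not tested.

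Replicate 1 had 8 of the 10 members above background higher than the mean of the other arrays, including all 5 of PRC2, where 52.1% of single-symbol probe sets above background were. Their median shift there was 0.090, against 0.0099 over those probe sets. On the same array 8 of 9 opposing enzymes and cofactors above background were higher (median shift 0.14). So were 5 of 6 other canonical PRC1 subunits (0.16), 4 of 6 other PRC2 subunits (0.099) and 5 of 12 variant PRC1 subunits (-0.02). For replicate 2 this held for 4 of 10 members (49.3% of the probe sets). For replicate 3 it held for 3 of 10 (52.2%), and for replicate 4 for 3 of 10 (45.9%). Their median shifts on these arrays were -0.038, -0.064 and -0.021. After median centring of the arrays, 8 of 10 members (44.8% of the probe sets) were higher on replicate 1, with a median shift of 0.056 against -0.024 over the probe sets. For replicate 3 the centred counts were 4 of 10 (56.8%) and for replicate 4 they were 5 of 10 (51.0%). The cell cycle genes, with 19 of 19 above background, had median shifts of -0.02, 0.06, -0.02 and 0.04 on the arrays of replicates 1 to 4, where the shifts of Ezh2 were 0.12, 0.03, -0.14 and -0.01.

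**Figure D2:**
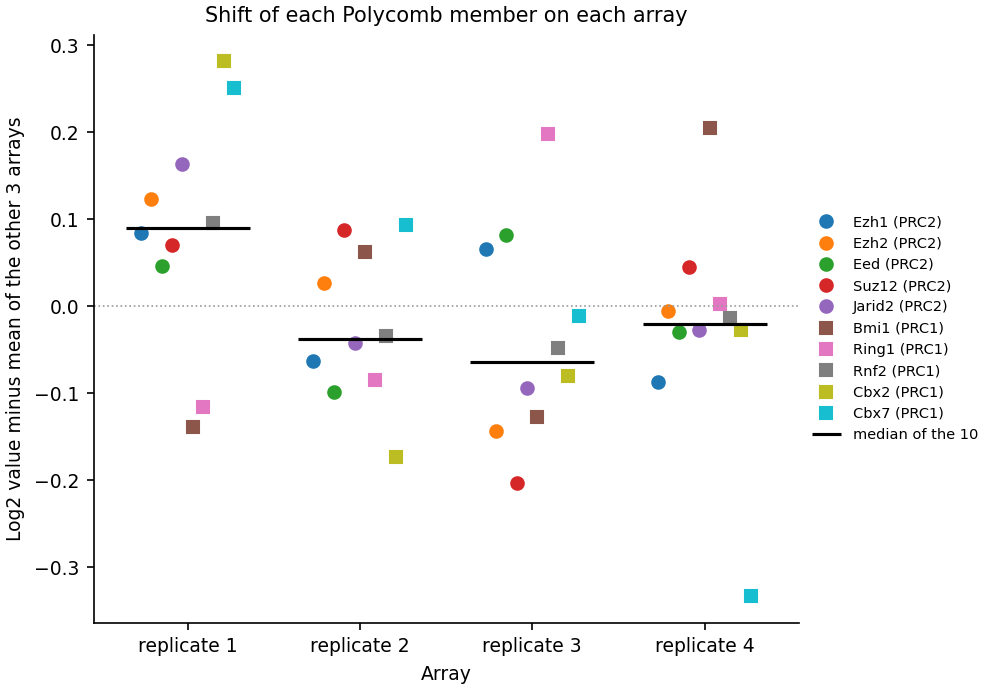
Shift of each member above background, its log2 value on 1 array less the average of the remaining 3 (vertical axis), for the arrays of replicates 1 to 4 (horizontal axis). Circles are PRC2 genes, squares PRC1 genes and black bars the median of the 10; the largest shifts are those of Cbx7 on replicate 4 (-0.33) and Cbx2 on replicate 1 (0.28), and all 5 PRC2 genes lie above 0 on replicate 1.

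Of 27 other subunit genes, 25 had a probe set of their own and 24 of these were above background, with SDs of 0.032 to 0.25. The share above background over all single-symbol probe sets was 63.5%. All 6 further PRC2 genes passed. Among them Rbbp4, a histone-binding subunit, had 12.47, 12.39, 12.30 and 12.27 on the log2 scale, and its X-linked paralogue Rbbp7 had 11.24, 11.40, 11.36 and 11.33. Rbbp4 was highest on replicate 1 and Rbbp7 was lowest there. Phf19, a PRC2 subunit that binds methylated H3, had the largest SD of these 6, 0.15, with 8.78 on replicate 1 and 8.41 on replicate 2.

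Of the other canonical PRC1 genes, 6 of the 7 with a probe set were above background, where 63.5% of single-symbol probe sets were. Pcgf2, the paralogue of Bmi1 also known as Mel18, was above the line on 3 arrays (6.52, 6.68, 6.58 and 6.70) and just below it on that of replicate 1. Phc1, a polyhomeotic subunit, had 9.18, 8.84, 8.68 and 8.64, the largest SD among the other subunits, and it was highest on replicate 1, as Cbx2 and Cbx7 were. Cbx8, a further chromodomain subunit, had 8.50, 8.09, 8.43 and 8.13, with replicates 1 and 3 above replicates 2 and 4. Scml2, an X-linked subunit, was nearest to the line of those above it, by a mean of 0.44, and was highest on replicate 4.

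All 12 genes of variant PRC1, in which Rybp or Yaf2 take the place of a Cbx protein, were above background, with a median SD of 0.095. Of single-symbol probe sets, 63.5% were above it. Pcgf6 had 9.50, 9.92, 9.71 and 9.68, and Pcgf1, its counterpart in the complex that Kdm2b brings to CpG islands, had 8.80, 8.89, 9.18 and 9.08. Both were lowest on replicate 1. Auts2, a partner of Pcgf3 and Pcgf5, had 7.39, 6.95, 7.16 and 6.92 and was highest there. Its mean margin over the line was 0.53. The X-linked corepressor genes Bcor (9.30, 9.23, 9.26 and 9.07) and Bcorl1 (8.32, 8.66, 8.49 and 8.51) were not set apart on replicate 3.

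Enzymes that oppose Polycomb, and cofactors of such enzymes, were measured beside it. Kdm6a, the X-linked demethylase that removes methyl groups from lysine 27 of H3 and is known to escape X inactivation, had 10.75, 10.55, 10.05 and 10.68 on the log2 scale. Replicate 3 was 0.61 below the mean of the others, at an SD of 0.32 over the 4 arrays (percentile 95.5 of single-symbol probe sets above background). Uty, its Y-linked homologue, had 4.70, 5.25, 9.31 and 4.29, above the line on replicate 3 alone. Replicate 3 was the array with low Xist. Of the 10 members above background, 4 (Ezh2, Suz12, Jarid2 and, only just, Rnf2) were lowest on this array and 2 (Eed and Ring1) were highest. Of all 13744 single-symbol probe sets above background, 2774 were lowest on it and 3190 were highest. With a single array of that kind, sex and other features of the sample cannot be told apart. Kdm6b, the autosomal demethylase, had 9.13, 8.93, 9.06 and 9.01.
Kmt2a, a methyltransferase of lysine 4 of H3, had 10.90, 10.59, 10.45 and 10.33, highest on replicate 1 and lowest on replicate 4 as Cbx7 was. Of the opposing enzymes and cofactors, 9 of 10 were above background, where 63.5% of single-symbol probe sets were. The median SD of the 9 was 0.10.

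**Figure D3:**
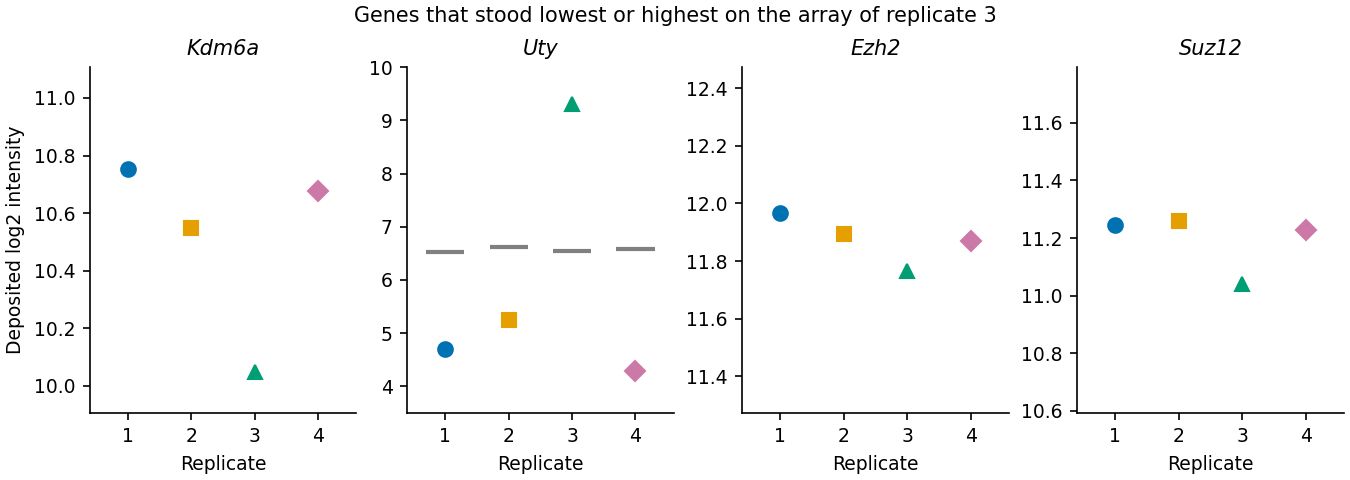
Deposited log2 intensity (vertical axes, with the span of the Uty panel wider than the others) on the arrays of replicates 1 to 4 (horizontal axes) for the opposing demethylase Kdm6a, its Y-linked homologue Uty and the PRC2 genes Ezh2 and Suz12, 1 point per array; grey marks in the Uty panel are the background lines. Kdm6a, Ezh2 and Suz12 are lowest on replicate 3 (10.05, 11.77 and 11.04), and Uty is above its line only there (9.31).

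Genes known as Polycomb targets in stem cells and fibroblasts lay near the line. Of 15 with a probe set, 10 were above it on all 4 arrays, close to the 63.5% of single-symbol probe sets, and their mean margins ran from -1.60 to 1.47 on the log2 scale with a median of 0.36. With a stricter line, the 99th percentile of the receptor probe sets or the array median, 3 of 15 passed (Hoxa9, Hoxb4 and Sox1), where 48.2% and 46.6% of all probe sets did. Cdkn2a, the cell cycle inhibitor locus that Bmi1 is known to repress, had 7.02, 6.94, 7.07 and 6.96, a mean of 0.42 above the line. Hoxb4, a homeobox gene of stem and progenitor cells, had 7.87, 7.60, 7.49 and 7.59.
Hoxa5, Hoxa10, Hoxd13, Pax6 and Neurod1, regulators of development, did not pass. Hoxa5 had 7.49, 6.73, 6.50 and 6.76, so it was 0.82 higher on replicate 1 than the mean of the others and below the line on replicate 3. The other 4 were below the line on every array, among them Hoxa10 with 6.38, 6.50, 5.97 and 6.36.

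**Figure D4:**
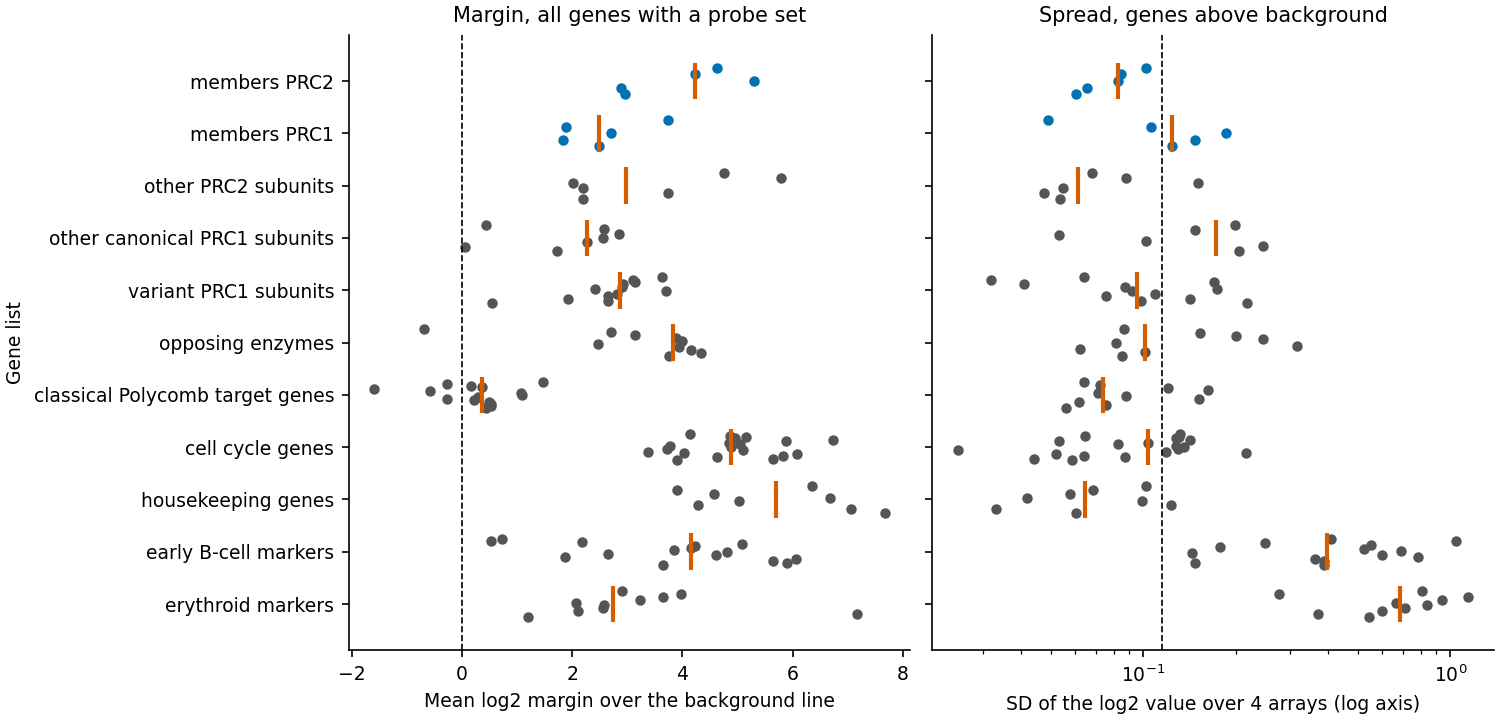
Mean log2 margin over the background line for all genes with a probe set (left, dashed line at 0) and SD of the log2 value over the 4 arrays for genes above background (right, log axis, dashed line at 0.115, the median of single-symbol probe sets above background), by gene list down the page; points are genes, blue for members, and orange bars are list medians. The 10 member genes lie at margins of 1.84 to 5.30 and SDs of 0.049 to 0.19, and the early B-cell and erythroid markers lie at larger SDs (medians 0.40 and 0.69). The list of opposing enzymes also holds cofactors of such enzymes.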

How the data were processed

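RNA of 4 samples was hybridized to Affymetrix Mouse Gene 1.0 ST arrays. The log2 intensities deposited by the authors were made with RMA, per the labels and the paper's methods. Which arrays were normalized together is not given in the sources used here, and nor is the threshold of the filter on low expression that the methods name. All 34760 probe sets of the table were kept, spanning 2.27 to 14.6, and 0 columns lacked a sample.

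Symbols came from the platform's annotation (21640 probe sets with 1 symbol, 1321 with several, 11799 with none listed), and all 10 members matched the RefSeq gene table by identifier. The members and the 17 gene lists were chosen with earlier results of these data known. Named genes were all members, the genes of the other Polycomb lists that did not pass, the 3 with the largest SD in each list, 6 X-linked or Y-linked ones, and the 5 genes nearest in profile to Cbx7 and to Cbx2. Xist, Kit, Ptprc, Kdm6b, Cdkn2a, Hoxa9 and Sox1 were named after their values were seen. A gene outside the members was given by its probe set of highest mean. Levels of different probe sets were not compared directly, but their margins over the shared background line were set side by side. An order by margin is no order of RNA amount.

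The margin over the line was tested with limma 3.58.1 in R 4.3.3 (Benjamini-Hochberg over all probe sets, threshold 0.05), and the script was tested on simulated data. Other values came from Python 3.11.15, pandas 2.3.3 and numpy 2.4.6. Alternatives were other lines (99th and 90th percentiles, 211 vomeronasal and taste receptor probe sets, the array median), 3 of 4 arrays, limma, quantile normalization, cyclic loess, median centring and leaving out each array. The number of arrays limits the precision.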

Additional observations from a re-analysis of the deposited data

Results flagged for a closer look

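Of 41 named probe sets tested for 1 array far from the other 3, 4 were set apart. Chance gives about 1 in 20, but these probe sets are not independent, and some were named after their values were seen, so the count was not set against chance. Suz12 was low on the array of replicate 3, at a log2 value of 11.04 against a mean of 11.24 on the others. On the same array Xist was low, at 5.48 against 13.09, and the Y-linked Eif2s3y was high, at 10.05 against 4.81. Xist and Eif2s3y are both sex-linked, so these are not separate observations. Kit was low on the array of replicate 1, at 10.46 against 10.81. The cause was not tested.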

How the results depend on the processing

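No paired analysis was possible because there was 1 group and nothing to pair. The counts of 10 member probe sets and 10 member genes above background were the same under all alternatives run, and each member stayed on its side of the line. The median SD of the 11 member probe sets (0.10) ranged from 0.068 to 0.10 on leaving out single replicates, and was 0.113 after quantile normalization, 0.112 after cyclic loess and 0.096 after median centring. Their median shift was then 0.090 to 0.11 on replicate 1, -0.057 to -0.0025 on replicate 2, -0.067 to 0.015 on replicate 3 and -0.046 to 0.031 on replicate 4, so its sign rested on single arrays for replicates 3 and 4. Median centring moves all genes of an array by 1 constant. It took the median shift of all single-symbol probe sets above background to 0.022 on replicate 3, against 0.0075 as deposited, and to 0.0040 on replicate 4, against -0.015, and with it Ezh1 was highest on replicate 3 and the shift of Cbx7 there was 0.0026. The alternatives for the other lists were added after the data were examined. The count of classical target genes above background fell to 3, against 10, with the 99th percentile of silent receptors and, likewise, to 3 with the array median as the line, both of which lay higher on these arrays, and lay at 10 to 11 without any 1 replicate. The count of other subunit genes (24) was 22 to 25 under all alternatives run. For the target genes, the count thus depended on the line chosen, and silence was not told apart from weak signal.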
